A study of Homo sapiens with 16 samples.

Results

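Glycolysis and hypoxia response genes were followed across 3 human cancer cell lines of differing STAG2 status. STAG2, on the X chromosome, encodes a part of cohesin, the ring-shaped complex that keeps sister chromatids paired and shapes chromatin loops. The 36 genes were 16 enzymes from hexokinase to lactate dehydrogenase, 6 transporters and regulators of glycolytic flux, and 14 other targets of hypoxia-inducible factor (HIF). They were taken by name, with earlier results of these data known. A gene was represented by the probe-set row annotated to it alone, or by the row with the highest mean where it had several. Such a row existed for 33 of the 36 genes, which are 33 of the 18417 genes with a row of their own and of the 12978 that passed a filter on low values. PGAM1, SLC16A3 and CA9 had none and have no values here. All 33 measured genes passed the filter, and none fell below the lower quartile of an array.

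H4 and 42MGBA are brain tumour lines, labelled glioblastoma, with a mutated STAG2, whereas HCT116 comes from a colorectal carcinoma and has intact STAG2. The deficient H4 group was made of parental cells and clones 10 and 12, which had not recombined, against the knock-in clones 8-1, 8-3 and 88-1 with a corrected gene. The 42MGBA arrays labelled deficient came from the parental line and clones 53 and 92, in which Cre had not yet acted on the knock-in allele, and those labelled corrected from the Cre-treated clones 53-1, 53-7 and 92-6 derived from them. In HCT116 the knockout clones 7 and 21 were compared with the non-recombinant clones 24 and 27, which stayed wild-type. Each clone gave 1 array of a subconfluent growing culture that received no treatment, per the labels, so no hypoxia is named for any group. In H4 every corrected array came from a Cre-treated knock-in clone, and no deficient array did. In 42MGBA every array labelled corrected was likewise from a Cre-treated clone, and none labelled deficient was. HCT116 knockouts were set only against non-recombinant clones. STAG2 status cannot be told apart from Cre history in H4 and 42MGBA, or from targeting history in H4 and HCT116. Clones 8-1 and 8-3 share a parent clone, as do 53-1 and 53-7. P-values measure the spread between single-clone or parental cultures within the 6 groups. Clones of a shared parent entered as separate cultures, so p-values can be too small.

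In glycolysis, hexokinase traps glucose as a phosphate ester, phosphofructokinase commits it to breakdown, and later enzymes yield ATP and pyruvate, which lactate dehydrogenase reduces to lactate. HIF is a transcription factor made of an oxygen-sensitive alpha subunit and a stable beta subunit. With oxygen present, prolyl hydroxylases mark the alpha subunit for VHL-dependent destruction. Stabilised HIF binds a short core motif and raises glucose transporters, most glycolytic enzymes, pyruvate dehydrogenase kinase and genes of mitophagy, pH control and collagen hydroxylation. Many tumour lines run glycolysis in the presence of oxygen.

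The HIF core motif, ACGTG or GCGTG on either strand, was searched in RefSeq promoter windows of build GRCh38.p14, from 250 bases before to 50 bases after a start. Windows were found for 33 of the 36 genes; SLC2A3, BNIP3L and NDRG1 had none in the table. The motif lay in at least 1 window of 30 of these 33 genes (90.9%) and in 42 of their 62 windows (67.7%). Among all genes of the table the shares were 52.4% of 27305 genes and 48.4% of 35116 windows. ACGTG alone was in 40.3% of the members' windows, against 21.4% of all windows. The members were chosen partly as HIF targets and had more windows per gene than the table as a whole. These shares are therefore no test of the motif. A match describes the letters only. The palindrome CACGTG counts once on each strand. Windows of 5 genes are shown: HK2 and PFKFB3 because they passed the test in H4, and ALDOC, P4HA1 and PDK1 because they stood highest above the rest in H4 clone 10, a choice made after their values were seen. Each is read 5′ to 3′ on the gene's strand from the window with the most matches, and capitals mark the motif on either strand. The HK2 window is chr2:74834920-74835219 on the plus strand with 6 matches, and the PFKFB3 window is chr10:6202682-6202981 on the plus strand with 2. The ALDOC window is chr17:28576846-28577145 on the minus strand with 5, the P4HA1 window chr10:73096817-73097116 on the minus strand with 1, and the PDK1 window chr2:172555840-172556139 on the plus strand with 2.
HK2: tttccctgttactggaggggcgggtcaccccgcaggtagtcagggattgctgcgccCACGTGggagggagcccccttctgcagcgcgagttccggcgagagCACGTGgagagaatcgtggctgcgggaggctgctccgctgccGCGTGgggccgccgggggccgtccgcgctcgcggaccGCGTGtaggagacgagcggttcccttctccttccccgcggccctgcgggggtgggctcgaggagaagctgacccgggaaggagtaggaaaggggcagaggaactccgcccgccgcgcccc
PFKFB3: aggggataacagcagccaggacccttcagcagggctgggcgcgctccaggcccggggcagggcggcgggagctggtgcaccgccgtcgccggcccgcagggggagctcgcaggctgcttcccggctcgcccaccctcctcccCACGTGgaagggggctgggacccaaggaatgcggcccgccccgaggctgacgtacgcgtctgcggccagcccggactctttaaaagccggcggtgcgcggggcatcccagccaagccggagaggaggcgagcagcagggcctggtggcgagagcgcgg
ALDOC: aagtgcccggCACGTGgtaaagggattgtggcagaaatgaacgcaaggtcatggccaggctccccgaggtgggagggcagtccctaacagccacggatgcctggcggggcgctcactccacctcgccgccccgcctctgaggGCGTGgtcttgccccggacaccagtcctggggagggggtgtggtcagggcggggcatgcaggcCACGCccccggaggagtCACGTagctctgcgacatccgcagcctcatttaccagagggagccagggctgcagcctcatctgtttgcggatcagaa
P4HA1: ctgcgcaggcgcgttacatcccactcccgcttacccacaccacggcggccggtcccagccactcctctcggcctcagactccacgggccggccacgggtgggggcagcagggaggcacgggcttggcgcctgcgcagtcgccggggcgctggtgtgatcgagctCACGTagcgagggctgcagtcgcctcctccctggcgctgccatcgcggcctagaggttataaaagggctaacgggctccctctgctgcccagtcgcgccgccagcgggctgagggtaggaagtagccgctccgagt
PDK1: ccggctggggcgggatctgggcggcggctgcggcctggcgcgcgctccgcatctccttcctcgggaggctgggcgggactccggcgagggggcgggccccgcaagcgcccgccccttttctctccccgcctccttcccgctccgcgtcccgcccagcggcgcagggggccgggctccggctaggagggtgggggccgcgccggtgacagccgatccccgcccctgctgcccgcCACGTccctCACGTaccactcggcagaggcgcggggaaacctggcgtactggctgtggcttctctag

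The arrays were checked first. STAG2 measured 6.57, 6.96 and 6.62 in deficient H4 and 8.94, 8.91 and 8.87 in corrected H4 (log2), lower by 4.57-fold without correction. In HCT116 it measured 6.57 and 7.14 in the knockouts and 9.28 and 9.30 in clones 24 and 27, a 5.41-fold lower level after knockout. In 42MGBA, by contrast, STAG2 measured 4.75, 5.34 and 5.60 in the arrays labelled deficient and 5.65, 5.41 and 5.53 in those labelled corrected, which did not pass the test (adjusted p = 1.00), so the STAG2 values do not bear out the labels there. The array medians were at most 5.05 in 42MGBA and at least 6.23 in H4 and HCT116, so 42MGBA levels are set against the other lines only as ranks within an array. Of 11 colorectal epithelial markers, 8 lay above the median of all array rows in HCT116, against 4 in H4 and 4 in 42MGBA. EPCAM and KRT8 stood at percentiles 97.0 and 99.6 in HCT116, but KRT20, VIL1 and LGALS4 at 27.9, 32.3 and 49.4. Of 10 glial and brain tumour markers, 3 lay above that median in H4, 4 in 42MGBA and 2 in HCT116. VIM stood at 96.3 in H4 and 98.7 in 42MGBA, against 39.3 in HCT116, while CD44 was at 95.7 or more in all 3 lines. The defining glial genes GFAP, OLIG2, S100B, SOX2, PTPRZ1 and FABP7 lay below the 50th percentile in H4 and 42MGBA. Arrays of a line correlated at r of 0.986 or more.

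In H4, STAG2-deficient cells had more hexokinase 2 mRNA and less PFKFB3 mRNA than corrected cells, and no other member passed the test. In bulk cultures a change in every cell cannot be told apart from a change in the share of cells that express a gene. HK2, the inducible hexokinase of the first step of glycolysis, measured 9.28 in the parental line, 9.88 in clone 10 and 9.61 in clone 12, against 8.46, 8.23 and 8.66 in corrected clones 8-1, 8-3 and 88-1. All deficient arrays lay above all corrected arrays. The rise was 1.14 on the log2 scale (SE 0.16, 95% interval 0.79 to 1.48, limma adjusted p = 0.0020), or 2.20-fold. PFKFB3, a kinase that makes the activator of phosphofructokinase, measured 8.02, 8.24 and 7.77 in the deficient arrays, against 8.37, 8.57 and 8.57 in the corrected arrays. The groups again did not overlap, with clone 12 lowest, and the log2 difference was -0.50 (SE 0.12, 95% interval -0.74 to -0.25, adjusted p = 0.0325). The 2 calls among 33 members (6.06%) stand beside 3.31% of all tested genes called in H4. HK2 passed whichever 1 H4 array was left out, but with the spread taken from H4 alone its adjusted p was 0.0531. PFKFB3 missed the threshold without clone 12, 8-3 or 88-1, with a highest adjusted p of 0.134, and with the H4 spread alone it was 0.166.

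**Figure D1:**
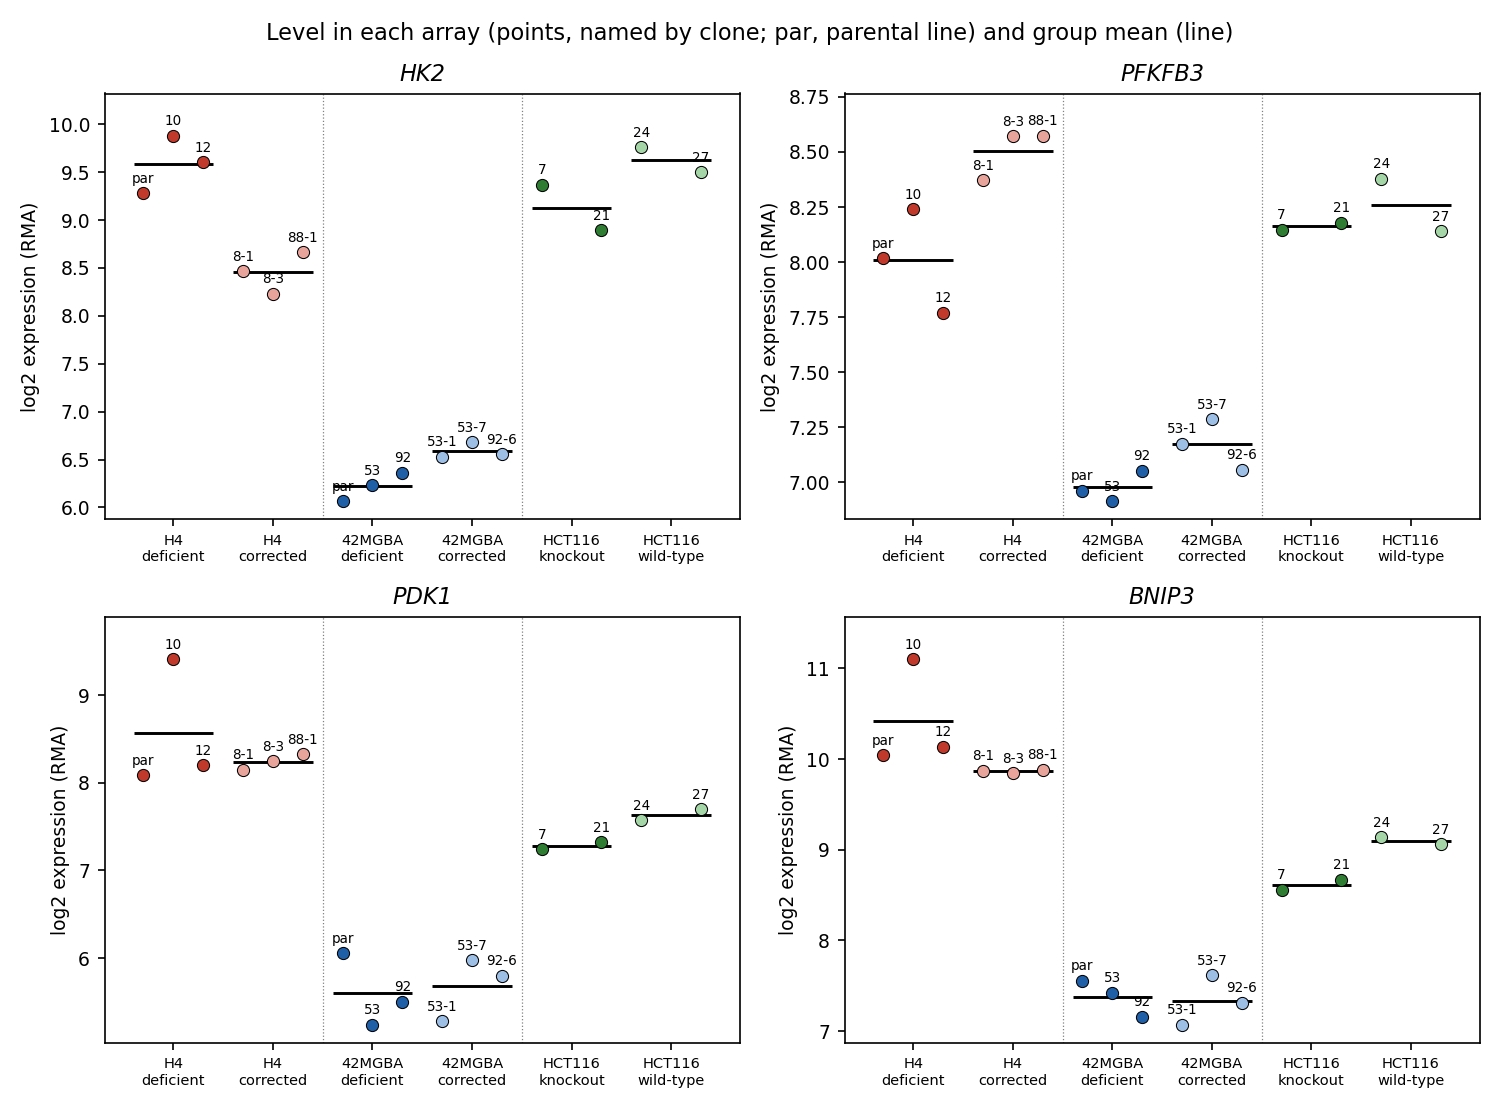
Log2 expression of HK2, PFKFB3, PDK1 and BNIP3 (y axes) in each array, by line and STAG2 status (x axis), with points named by clone and lines at group means. HK2 lies at 9.28 to 9.88 in deficient H4 and at 8.23 to 8.66 in corrected H4, while PDK1 and BNIP3 in deficient H4 stand highest in clone 10.

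The other enzymes of H4 differed less. Of the 15 measured enzymes 12 had a positive difference and 3 a negative one, with a median of 0.16, against 0.02 over all tested genes. TPI1, triosephosphate isomerase, measured 12.36, 12.54 and 12.50 in deficient arrays and 12.19, 12.12 and 12.17 in corrected arrays. These groups did not overlap, but the difference of 0.31 (SE 0.09) missed the threshold (adjusted p = 0.0985). ALDOC, an aldolase known from brain, measured 7.50, 8.90 and 7.25 in deficient arrays and 6.73, 7.20 and 6.85 in corrected arrays. Clone 10 was far above the rest, and clone 12 was only just above corrected clone 8-3; the difference was 0.96 (SE 0.31, adjusted p = 0.118). PFKL, the liver phosphofructokinase, differed by 0.28 (adjusted p = 0.214), PGK1, the first ATP-yielding kinase of the pathway, by 0.25 (adjusted p = 0.287), and ALDOA, the muscle aldolase, by 0.17 (adjusted p = 0.293). GAPDH, the oxidising step, differed by 0.08, ENO1, an enolase, by 0.09 and LDHB, a lactate dehydrogenase, by 0.06, with none past the test.

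The isozymes of the steps above were read by probe sets of their own. HK1, the constitutive hexokinase, measured 8.66, 9.07 and 8.89 in deficient H4 and 8.88, 8.90 and 8.93 in corrected H4. The groups overlapped, with a difference of -0.03 (95% interval -0.25 to 0.19). PFKM and PFKP, the muscle and platelet phosphofructokinases, differed by -0.08 and 0.03, ENO2, the neuronal enolase, by -0.01 and LDHA by 0.18, all with adjusted p of 0.689 or more.

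Among the flux genes, PFKFB4 had a difference opposite in sign to that of PFKFB3. PFKFB4, which acts on the same fructose bisphosphate, measured 6.95, 7.99 and 6.90 in deficient H4, against 6.72, 6.68 and 6.76 in corrected H4. The groups did not overlap, with clone 10 about 1 log2 unit above the other deficient arrays, and the difference of 0.56 (SE 0.21) did not pass (adjusted p = 0.184). SLC2A1, the basal glucose transporter, measured 11.63, 12.09 and 11.39 in deficient arrays, against 11.33, 11.26 and 11.38 in corrected arrays, a difference of 0.38 (adjusted p = 0.334). SLC2A3, the high-affinity glucose transporter, differed by -0.02, and PDK1, the kinase that shuts pyruvate dehydrogenase, by 0.32 (adjusted p = 0.650).

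Of the 13 other HIF targets measured in H4, 11 had a positive difference and 2 a negative one, with a median of 0.29, and none passed the test (lowest adjusted p = 0.0687). P4HA2, a catalytic subunit of collagen prolyl hydroxylase, measured 9.56, 10.37 and 9.51 in deficient arrays and 9.17, 9.04 and 9.34 in corrected arrays. The groups did not overlap; the difference was 0.63 (SE 0.18, adjusted p = 0.0687), and without the parental array it passed (0.76, adjusted p = 0.0368). P4HA1, the sister subunit, differed by 0.67 (SE 0.24, adjusted p = 0.158), BNIP3, a mitophagy receptor, by 0.56 (SE 0.22, adjusted p = 0.195), and DDIT4, an inhibitor of mTOR signalling, by 0.70 (SE 0.32, adjusted p = 0.287). ADM, the vasodilator peptide adrenomedullin, had the lowest difference of the group, -0.30 (adjusted p = 0.660). MXI1, an antagonist of MYC, and EGLN3, a HIF prolyl hydroxylase, differed by 0.03 and -0.07.

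Over all members, 26 differences were positive and 7 negative in H4, with a median of 0.20, and 12 of 33 members had an unadjusted p under 0.05, against 16.4% of all tested genes. All deficient arrays lay above all corrected arrays in 15 of 33 members, which were 8 enzymes, 2 flux genes and 5 HIF targets, against 12.1% of all tested genes. PFKFB3 was the 1 member with all deficient arrays below, against 8.68% of tested genes.

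Much of the median size of these differences, though not the count of positive signs, sat in 1 culture. Clone 10 was the highest of the 6 H4 arrays for 25 of 33 members, against 23.4% of all tested genes. It was highest for 12 of 13 HIF targets, 4 of 5 flux genes and 9 of 15 enzymes. Its excess over the mean of the other 5 H4 arrays had a median of 0.79 for HIF targets, 0.69 for flux genes, 0.22 for enzymes and -0.01 over all tested genes. ALDOC stood 1.79 above the mean of the other 5 arrays, an excess that 0.146% of tested genes reached. P4HA1 stood 1.22 above them, PDK1 1.21, PFKFB4 1.19, BNIP3 1.15, P4HA2 1.05 and HK2 1.03. The other 5 arrays include the corrected clones, which were low in HK2. Among the deficient arrays HK2 measured 9.88 in clone 10, 9.61 in clone 12 and 9.28 in the parental line. PDK1 measured 8.08, 9.41 and 8.20 in the parental line, clone 10 and clone 12, against 8.15, 8.25 and 8.33 in corrected arrays, so only clone 10 lay above the corrected clones. BNIP3 measured 10.04, 11.10 and 10.14 in deficient arrays, against 9.87, 9.85 and 9.88 in corrected arrays, and KDM3A, a histone demethylase, 7.80, 8.74 and 7.86 in deficient arrays, against 7.64, 8.03 and 7.87 in corrected arrays. The members not highest in clone 10 were PFKFB3, PFKM, PFKP, ENO1, ENO2, GAPDH, LDHB and EGLN3.

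Clone 10 was read from 1 array, so its deviation has no replicate and no test. The median SD of the members was 0.24 in the deficient H4 arrays, against 0.10 in the corrected H4 arrays. Over all tested genes the medians were 0.15 and 0.11. Without clone 10, 24 members were positive and 9 negative with a median of 0.08, against 0.03 over all tested genes. The median was then 0.08 for enzymes, 0.09 for HIF targets and -0.10 for flux genes. HK2 still rose by 0.99 (limma adjusted p = 0.00741) and PFKFB3 still fell, with a difference of -0.61 (adjusted p = 0.0145). These were again the 2 members called, and the share of all tested genes called was not counted in that fit. ALDOC then differed by 0.45, P4HA2 by 0.35, P4HA1 by 0.33 and BNIP3 by 0.22, none past the test. What sets clone 10 apart was not tested.

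**Figure D2:**
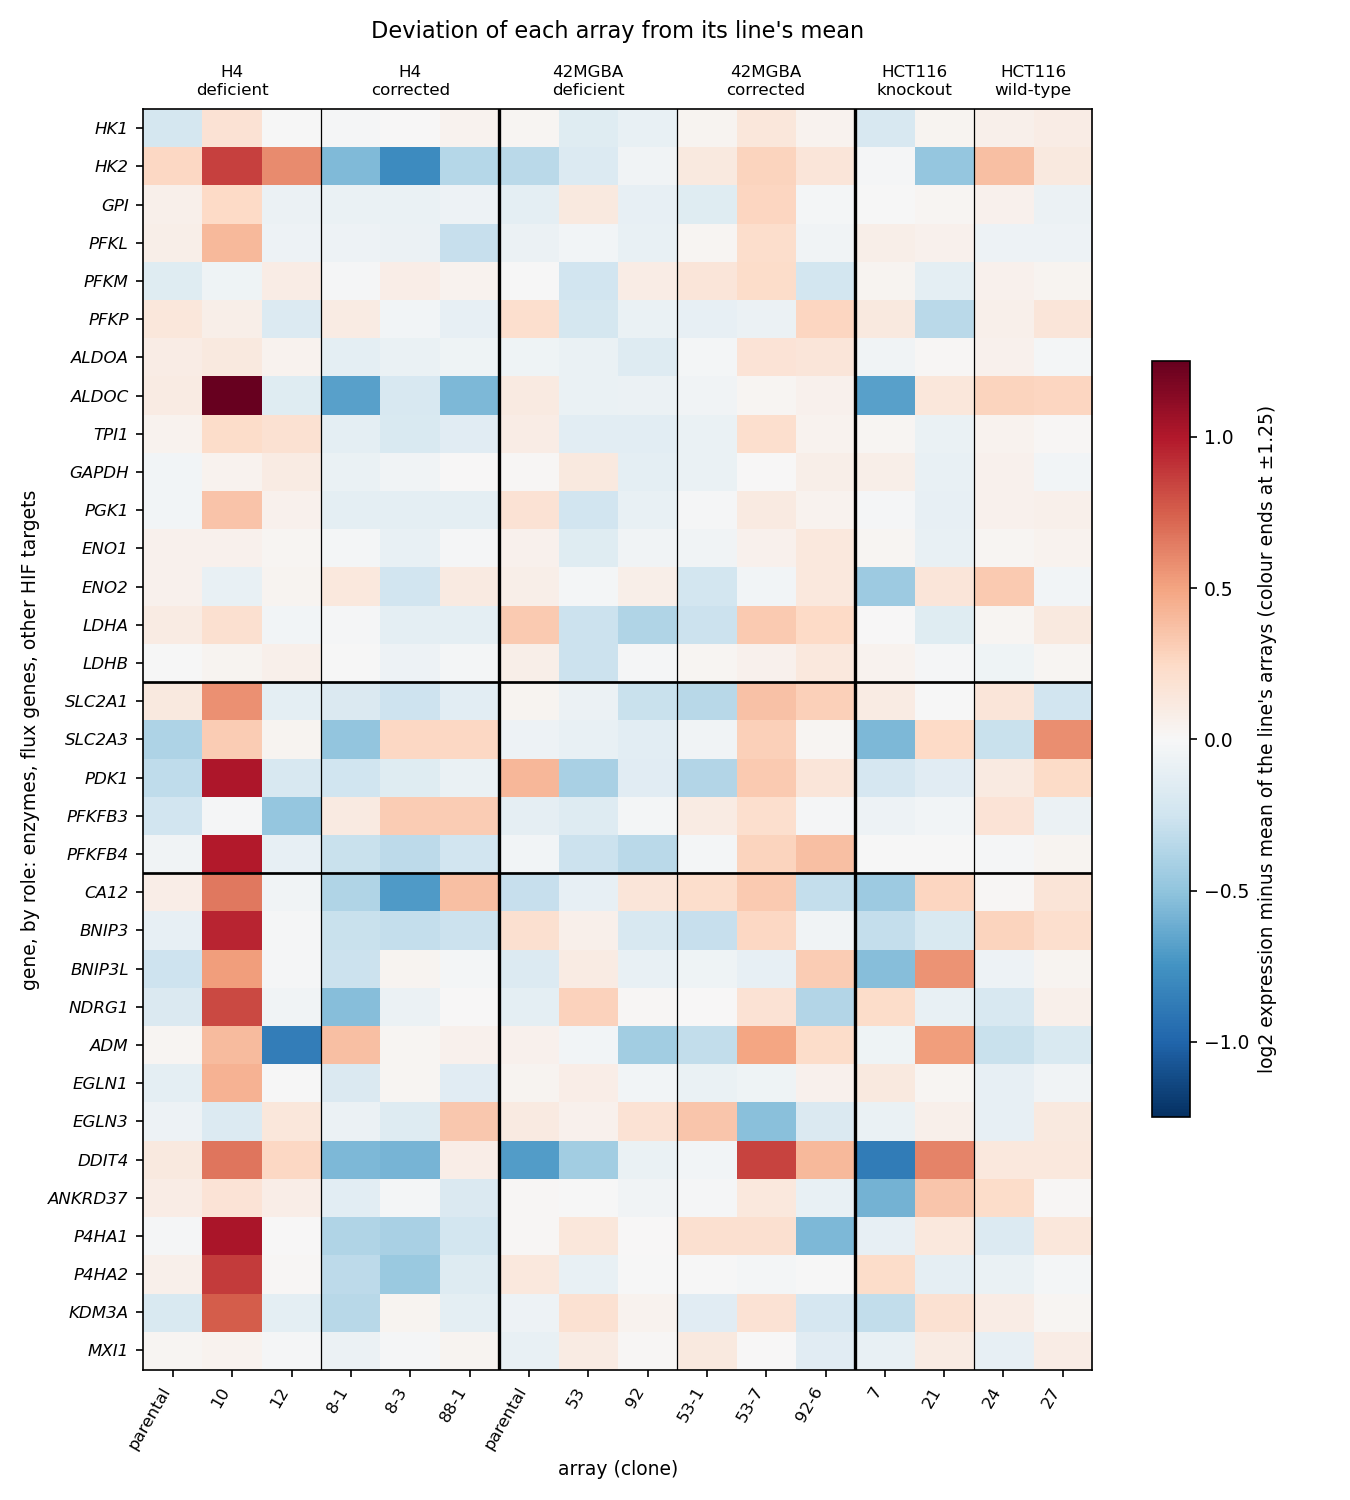
Deviation of each array from the mean of its line (colour, log2) for the 33 measured genes (rows, by role) in the 16 arrays (columns, by group). The column of H4 clone 10 is high across most HIF targets and flux genes, and the HK2 row is high in all 3 deficient H4 arrays.

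Among the HIF machinery, EPAS1 passed in H4. EPAS1, the alpha subunit of HIF-2, averaged 9.73 ± 0.38 (SD, n = 3) in deficient H4 and 10.66 ± 0.10 (SD, n = 3) in corrected H4, and fell, with a difference of -0.93 (SE 0.20, limma adjusted p = 0.0218). The call was lost in 5 of 14 alternatives, among them without clone 12, 8-3 or 88-1 (highest adjusted p = 0.0869) and with the H4 spread alone (0.0831). No other of the 13 tested genes of the pathway core passed; 7 were positive and 6 negative, with a median of 0.01. ARNT2, a beta subunit, and CREBBP, a coactivator, came nearest with -0.49 (adjusted p = 0.123) and -0.23 (adjusted p = 0.196). Of 25 further HIF-responsive genes tested, 20 were positive and 5 negative, with a median of 0.24, against 0.02 over all tested genes. These genes were not recounted without clone 10, so how far that culture carried their median was not tested. LOX, the collagen-crosslinking lysyl oxidase, averaged 10.24 ± 0.47 (SD, n = 3) in deficient H4 and 8.67 ± 0.10 (SD, n = 3) in corrected H4. It rose by 1.57 (limma adjusted p = 0.0103), and no other gene of that list passed. None of 27 further genes of glycolysis, gluconeogenesis and pyruvate use and none of 7 pentose phosphate genes passed in H4 by limma. Nearest in the glycolysis list were BSG, the partner of lactate transporters, with 0.24 (adjusted p = 0.142), and PKM, pyruvate kinase, with 0.20 (adjusted p = 0.206). In the pentose phosphate list RPE, an epimerase, came nearest with 0.22 (adjusted p = 0.194), then PGLS, a lactonase, with 0.27 (adjusted p = 0.216).

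In 42MGBA no member passed, and neither did any of the 12978 tested genes (0% called, with 512, or 3.95%, at an unadjusted p under 0.05 by limma, 3 of them among the 33 members). Differences are given as labelled deficient minus labelled corrected. DDIT4 had the largest, with 6.83, 7.10 and 7.45 in the parental line and clones 53 and 92, against 7.50, 8.38 and 7.94 in clones 53-1, 53-7 and 92-6. All arrays labelled deficient lay below the others, narrowly for clones 92 and 53-1, and the difference was -0.81 (SE 0.32, adjusted p = 1.00). HK2 measured 6.07, 6.23 and 6.36 in the arrays labelled deficient, against 6.53, 6.68 and 6.56 in those labelled corrected. The groups did not overlap, in the order opposite to H4, with a difference of -0.37 (SE 0.16, adjusted p = 1.00).

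ALDOA measured 8.65, 8.61 and 8.54 in the 42MGBA arrays labelled deficient, against 8.67, 8.86 and 8.85 in those labelled corrected (difference -0.20, SE 0.08). PFKFB4 measured 5.63, 5.39 and 5.33 in the arrays labelled deficient, against 5.64, 5.94 and 6.04 in those labelled corrected (difference -0.42, SE 0.21). Both sets stood apart only narrowly, between the parental array and clone 53-1, and neither passed (adjusted p = 1.00 each). The arrays labelled deficient all lay below the others in 7 members, HK1, HK2, ALDOA, SLC2A3, PFKFB3, PFKFB4 and DDIT4, and above them in none, against 6.33% of tested genes below and 2.57% above. Of the enzymes 13 of 15 were negative with a median of -0.10, and of the HIF targets 5 of 13 with a median of 0.02. The median over all tested genes was -0.03. Clone 53-7 was the highest 42MGBA array for 16 of 33 members, against 22.5% of tested genes. Without it, 20 members were negative and 13 positive, with a median of -0.04. No gene of the other lists passed by limma; TKT, the transketolase of the pentose phosphate pathway, and PCK2, mitochondrial phosphoenolpyruvate carboxykinase, differed by -0.43 and -0.58 (adjusted p = 1.00 each).

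In HCT116 no member passed either, while 0.131% of all tested genes did (17 genes), and HK2 was the 1 of 33 members with an unadjusted p under 0.05, against 7.83% of tested genes. HK2 measured 9.37 and 8.89 in knockout clones 7 and 21, against 9.76 and 9.50 in wild-type clones 24 and 27. Both knockouts lay below both wild-type clones, with a difference of -0.50 (SE 0.20, 95% interval -0.92 to -0.08, adjusted p = 0.561). BNIP3 measured 8.56 and 8.67 in the knockouts, against 9.14 and 9.06 in the wild-type clones, close within each pair (difference -0.49, SE 0.26, adjusted p = 0.699). ENO2 measured 7.93 and 8.53 in the knockouts, against 8.71 and 8.35 in the wild-type clones (difference -0.30, adjusted p = 0.749), and the groups overlapped. ALDOC measured 8.69 and 9.51 in the knockouts, against 9.65 and 9.64 in the wild-type clones (difference -0.54, adjusted p = 0.777), with the low value in clone 7.

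Of the 33 members 22 were negative and 11 positive in HCT116, with a median of -0.07, against -0.01 over all tested genes. Both knockout arrays lay below both wild-type arrays in 8 members, 6 of them enzymes, against 22.1% of tested genes. They lay above in 3, PFKL, EGLN1 and ADM, against 18.5% of tested genes. The knockout clones differed from each other more than the wild-type clones did. Clone 21 exceeded clone 7 by 1.50 for DDIT4, 1.10 for BNIP3L, a mitophagy receptor, 0.93 for ANKRD37, an ankyrin repeat protein, 0.82 for ALDOC and 0.72 for CA12, a carbonic anhydrase. The knockout pair differed by over 0.5 log2 units in 9 of 33 members (27.3%, against 7.78% of tested genes). The wild-type pair did so in 1 (3.03%, against 2.39% of tested genes), SLC2A3, which also differed by 0.82 between the knockouts. Each knockout clone therefore decided the sign for HIF targets: without clone 7, 10 of 13 were positive with a median of 0.14, and without clone 21, 9 of 13 were negative with a median of -0.09. ANKRD37 measured 6.15 in clone 7 and 7.08 in clone 21, against 6.96 and 6.75 in the wild-type clones. Its difference was -0.71 without clone 21 and 0.22 without clone 7, each from 1 knockout array. No gene of the other lists passed by limma in HCT116; TFRC, the transferrin receptor, differed by -0.58 (adjusted p = 0.615) and RPIA, a pentose phosphate isomerase, by -0.43 (adjusted p = 0.610).

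**Figure D3:**
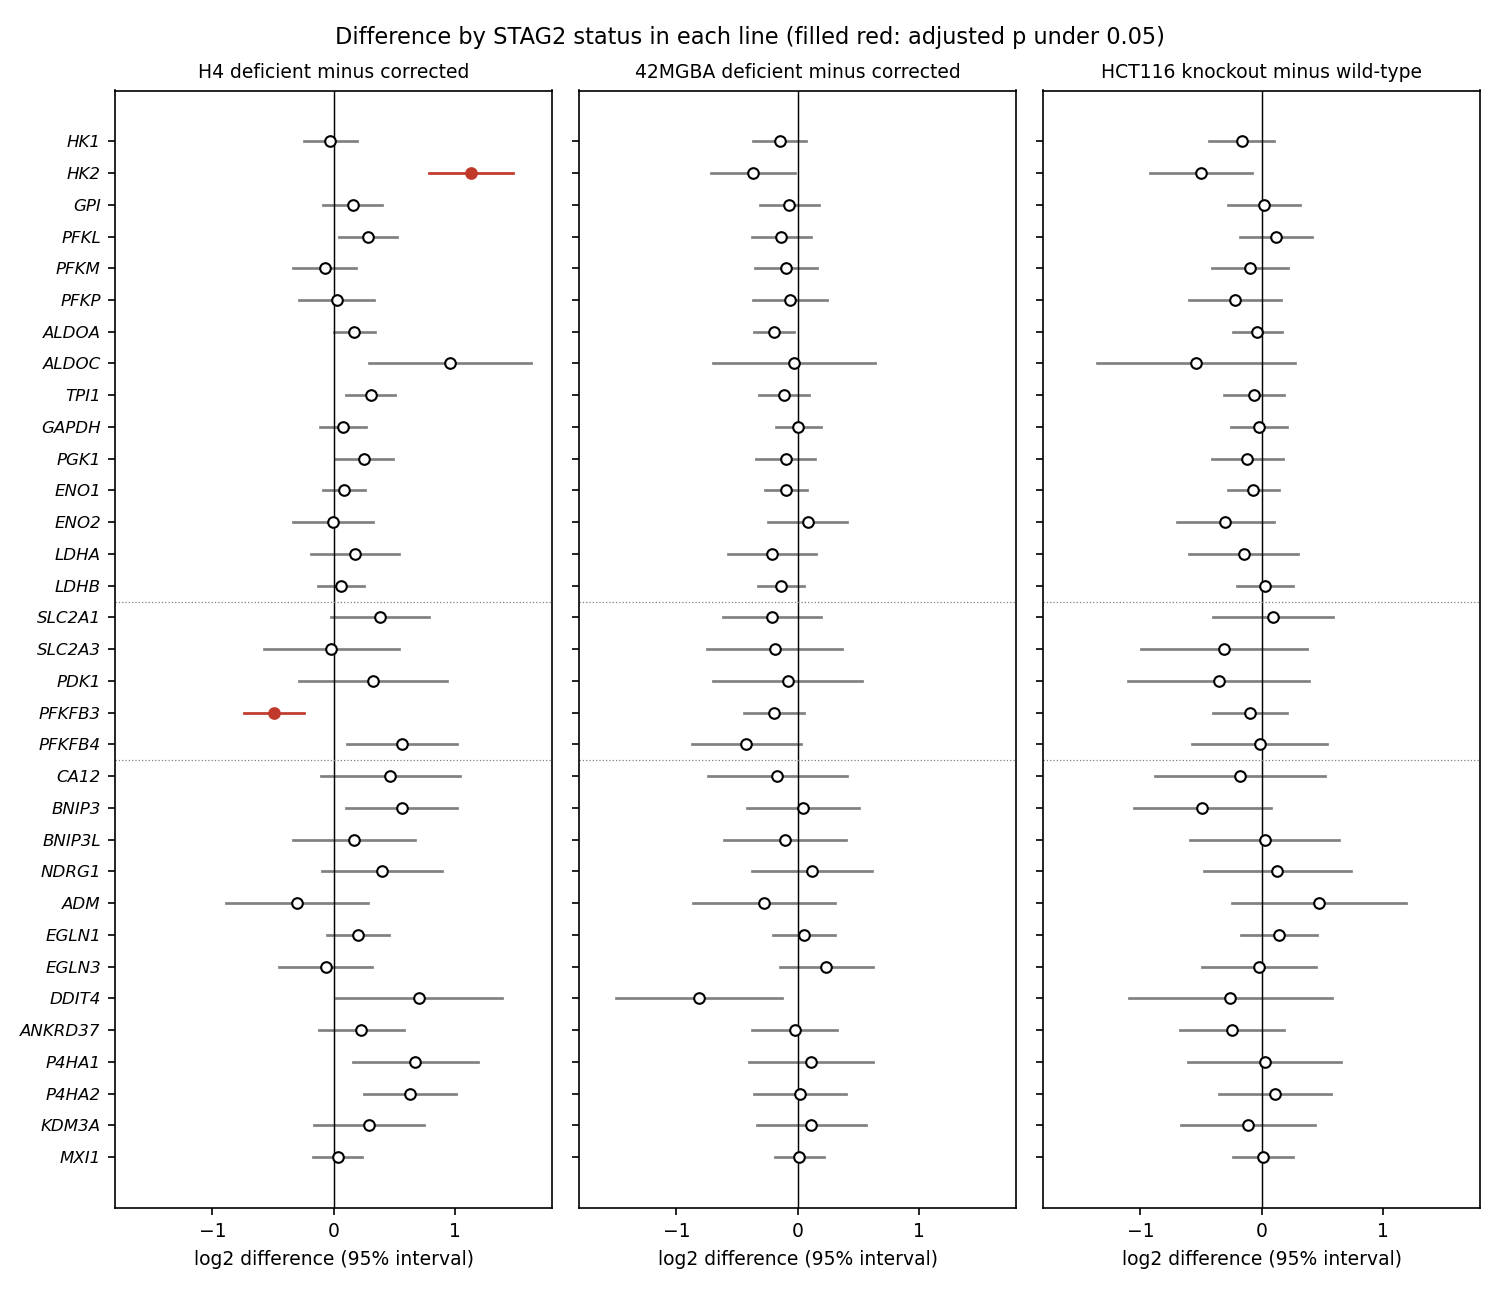
Log2 difference by STAG2 status (x axes, with 95% intervals from the shared fit) of the 33 measured genes (y axis, by role) in H4, 42MGBA and HCT116. Only HK2 and PFKFB3 in H4 are filled as past the threshold, and HK2 lies at 1.14 in H4, -0.37 in 42MGBA and -0.50 in HCT116.

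The differences by STAG2 status were themselves compared between lines. HK2 was the 1 member that passed. Its difference in H4 exceeded that in HCT116 by 1.63 (SE 0.26, limma adjusted p = 0.0174) and that in 42MGBA by 1.50 (SE 0.23, adjusted p = 0.0127). These 1 of 33 members each stand beside 0.293% and 0.254% of tested genes called. Between 42MGBA and HCT116 no member passed by limma, with 0 at an unadjusted p under 0.05 against 4.85% of tested genes, and 0.0231% of tested genes were called. The HK2 contrast with HCT116 missed the threshold without wild-type clone 24 (1.50, adjusted p = 0.0775). Both HK2 contrasts missed it with clones of one parent averaged (adjusted p = 0.0543 with HCT116 and 0.0725 with 42MGBA). The contrast with 42MGBA also missed it with the parent clone as a block (1.43, adjusted p = 0.0699) and without clones 10 and 53-7 (1.31, adjusted p = 0.0533). For the mean of the 3 lines no member passed (lowest adjusted p = 0.219), beside 0.139% of tested genes called. At an unadjusted p under 0.05 by limma there were 2 of 33 members, against 9.86% of tested genes.

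The lines themselves differed widely in these genes. The level contrast of H4 minus HCT116, over both groups of each line, called 24 of 33 members (72.7%), against 61.8% of all tested genes, 17 higher and 7 lower in H4. With most genes called, that share says little of the members, and the sizes are the description. SLC2A3 was 3.14 higher in H4 on the log2 scale (SE 0.21, adjusted p = 4.22e-09), 8.83-fold, with 9.89 to 10.70 in H4 and 6.67 to 7.82 in HCT116. CA12 was 1.46 higher, BNIP3 1.29, EGLN3 1.20 and BNIP3L 1.11. ALDOC was lowest in H4 relative to HCT116, with a difference of -1.97 (SE 0.25, adjusted p = 5.65e-06), followed by ENO2 with -0.95, PFKM with -0.57, MXI1 with -0.50 and PFKP with -0.47. Of the 13 HIF targets 9 were higher in H4 and 2 lower, whereas every phosphofructokinase and enolase that passed was lower in H4.

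Isozymes of one step were also set between these lines, each by its own difference. HK1 was 0.81 higher in H4 (limma adjusted p = 4.76e-07), while HK2 differed by -0.36 (adjusted p = 0.0236). That HK2 value averaged both groups of each line, and the order of the lines depended on STAG2 status. HK2 averaged 9.59 in deficient H4 and 9.13 in HCT116 knockouts, but 8.45 in corrected H4 and 9.63 in wild-type HCT116. For the aldolases, ALDOA differed by 0.15 (adjusted p = 0.0522) and ALDOC by -1.97. ENO1 differed by 0.11 (adjusted p = 0.140) beside -0.95 for ENO2, and PFKL by 0.08 (adjusted p = 0.461) beside -0.57 for PFKM and -0.47 for PFKP. The lactate dehydrogenases LDHA and LDHB, 0.31 and -0.14, did not pass. Both glucose transporters were higher in H4, SLC2A1 by 0.97. EGLN1, the main HIF prolyl hydroxylase, differed by -0.34 (adjusted p = 0.00542), beside the higher EGLN3. P4HA1 and P4HA2 were 0.76 and 0.67 higher, and PFKFB3 and PFKFB4 differed by 0.05 and -0.23, neither past the test.

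Ranks within an array place 42MGBA beside the other lines, with no test. GAPDH and ENO1 lay at percentile 99.7 or above on every array of the 3 lines. HK2 averaged percentile 84.2 in H4, 72.5 in 42MGBA and 87.9 in HCT116, and HK1 83.7, 86.1 and 74.9. Within H4, HK2 averaged percentile 89.4 in deficient and 79.0 in corrected arrays. ALDOC averaged percentile 65.6 in H4, from 56.7 to 83.3 across its arrays, 54.6 in 42MGBA and 87.7 in HCT116. Clone 10 was at the upper end of the ALDOC range. Members under the 50th percentile on some array were CA12, ANKRD37 and KDM3A.

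**Figure D4:**
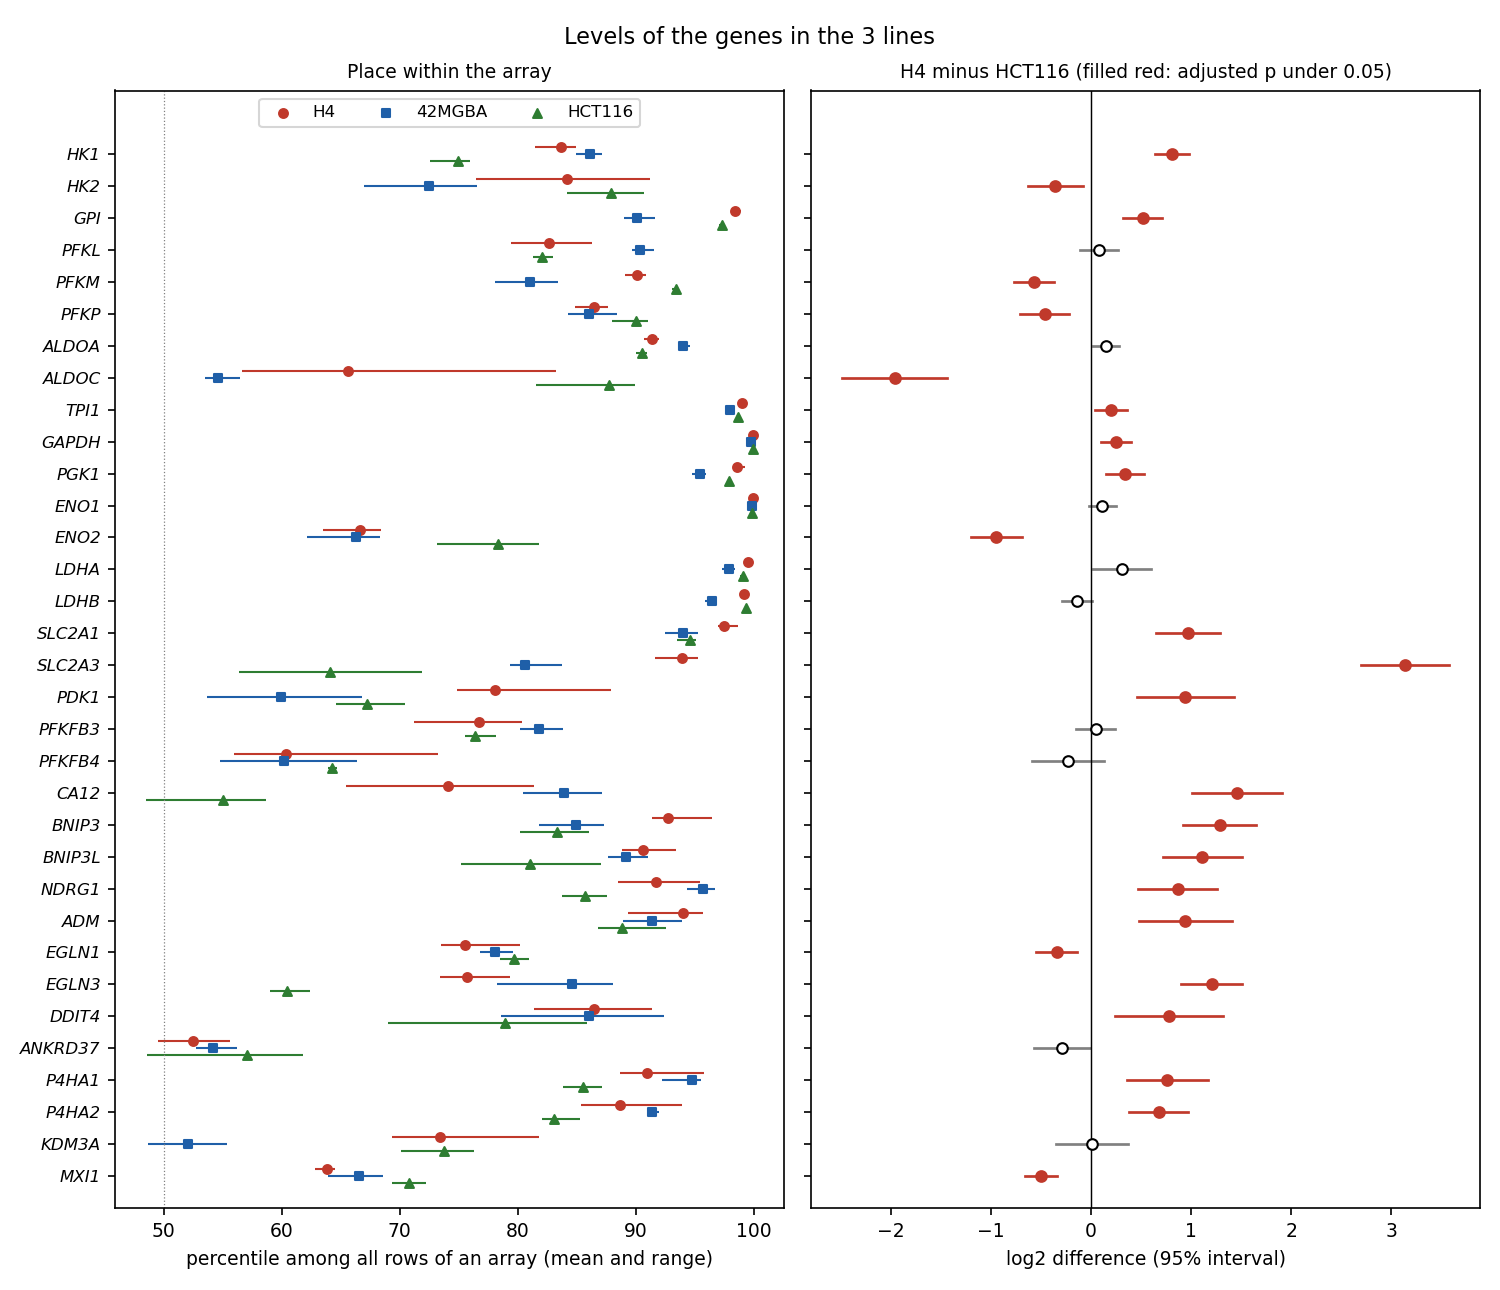
Left, percentile of each gene among all rows of an array (mean and range over a line's arrays) in H4, 42MGBA and HCT116; right, log2 difference of H4 minus HCT116 with 95% intervals, for the 33 measured genes (y axes). SLC2A3 is 3.14 higher in H4 and ALDOC has a difference of -1.97, while GAPDH and ENO1 sit at the top of every array.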

How the data were processed

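Gene expression in 16 cultures was read on Affymetrix Human Gene 1.0 ST arrays, with 1 array for each culture. The deposited table holds log2 expression values for 33297 rows; per the submitters' processing notes the authors used RMA in Affymetrix Expression Console, in versions not given in the sources used here. RMA corrects background, gives the arrays processed together a common distribution and summarises probes. The 42MGBA arrays had lower medians than the others, for which no reason is given in the sources used here, so their levels were compared only as ranks.

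One gene was annotated to 19460 rows, several to 1754 and none listed for 12083. Symbols were updated through Entrez identifiers to RefSeq GRCh38.p14. The row with the highest mean stood for a gene, and genes above the array median on at least 2 arrays were tested (12978). The R 4.3.3 package limma 3.58.1 fitted 6 group means over 16 arrays with 1 shared spread per gene, so intervals can understate the spread of a gene that varies more in 1 line. P-values were two-sided, adjusted by Benjamini-Hochberg over all tested genes, with a threshold of 0.05. The fit was also run on simulated data with independent noise and 1 spread per gene. That simulation did not cover shared parent clones or a spread that differs between lines. Groups came from titles.

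The members and lists were chosen with earlier results of these data known. Values in every array are given for members past the threshold and the 4 smallest p in each line, other genes of the lists being named by smallest p. PDK1, KDM3A and the sequences of ALDOC, P4HA1 and PDK1 were added after values were seen. Alternatives were no filter, quantile normalization, the spread of a line alone, no parental arrays, each array left out, parent clone as a block, clones of 1 parent averaged, mean of a gene's rows, a robust trended prior, and ACGTG alone. Clone names link 42MGBA pairs by parent clone, but residuals correlated at 0.05 for 53 with 53-1, 0.16 for 53 with 53-7 and -0.17 for 92 with 92-6. The number of arrays limits the precision.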

Additional observations from a re-analysis of the deposited data

Results flagged for a closer look

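The HK2 difference between STAG2-deficient and STAG2-proficient cells differed between lines by a test of the difference itself. It was 1.50 larger in H4 than in 42MGBA and 1.63 larger in H4 than in HCT116 on the log2 scale (limma adjusted p = 0.0127 and 0.0174). All 3 deficient H4 arrays lay above the corrected ones, and all 42MGBA and HCT116 arrays labelled deficient or knockout lay below their corrected or wild-type counterparts. Because the 42MGBA arrays labelled corrected did not pass a test for higher STAG2, the 42MGBA comparison rests on the labels alone.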

How the results depend on the processing

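Groups of 2 or 3 arrays and 1 clone per array limit every result. The counts below are of members only, and the share of all tested genes called was not counted in these alternatives. The H4 count of 2 members became 0 with the spread of H4 alone and 1 with clones of 1 parent averaged, and was 1 to 3 as each array was left out. Leaving out an HCT116 array leaves 1 array in its group, so those fits are read for size only. The ANKRD37 difference in HCT116 was -0.71 without knockout clone 21 and 0.22 without knockout clone 7. The count of 1 member differing between lines became 0 with clones averaged and was 1 to 2 as arrays were left out. The 42MGBA and 3-line mean counts were 0 in all 15 and 24 alternatives, and the H4 minus HCT116 count was 22 to 26. The ENO2 difference in HCT116 turned to 0.0041 without knockout clone 7, with a range of -0.60 to 0.00 over arrays left out. With the parent clone as a replicate block, the HK2 contrast of H4 with 42MGBA was 1.43 (adjusted p = 0.0699); the block changed no other call. PFKFB3 in H4 also missed the threshold without the parental arrays (adjusted p = 0.0608) and with clones averaged (0.0851), and P4HA2 passed without the parental arrays (0.0437). The enzyme median in HCT116 was -0.02 without clone 21. Leaving out clones 10 and 53-7 together was chosen after the data were seen. Quantile normalization, no filter, the mean of a gene's rows and a robust prior moved none of the counts by over 1.5 times. The causes of these changes were not tested.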
